A study of Homo sapiens with 12 samples.

Results

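The ribosome biogenesis genes examined here are 35 protein-coding genes that encode factors for making ribosomes, and not the ribosomal proteins themselves. They were taken from the count files by matching each gene symbol to its Ensembl identifier through GENCODE release 44, and all 35 were found among the 60675 identifiers that each file lists. The choice did not use the measured values of the genes, but it was made with earlier results of these data known. Each gene passed the filter on low counts in every fit, and the lowest raw count of any of them in any library was 38, for RRN3.

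Ribosome production starts in the nucleolus, where RNA polymerase I transcribes the ribosomal DNA into a long precursor RNA. Small nucleolar ribonucleoproteins (snoRNPs) guide the chemical modification of that precursor, and large assemblies of processing factors then cut it and fold it into the small (40S) and large (60S) subunits. In lymphoma cells the pathway is best known as a target of the transcription factor MYC, which with its partner MAX binds the E-box letters CACGTG.

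SUDHL6 and SUDHL16 are human cell lines of diffuse large B-cell lymphoma (DLBCL). Parental cells of each line, sensitive to the BCL2 inhibitor venetoclax (ABT-199), were compared with a resistant derivative that had been exposed to rising venetoclax concentrations over a long period until it grew at a concentration of 10 times the original IC50 or more. The resistant lines were afterwards kept in venetoclax, and cells were put into fresh media for experiments. Drug exposure therefore cannot be told apart from resistance. RNA was sequenced from 3 libraries of each of the 4 groups, SUDHL6 parental, SUDHL6 resistant, SUDHL16 parental and SUDHL16 resistant. Each resistant group is 1 derived line, no agent other than venetoclax separates it from its parental line in the labels, and the labels do not say that its libraries came from separate cultures, so the p-values measure only the spread between these libraries.

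The total count was 33992784 to 40885665 per library in SUDHL6 and 14335460 to 22068221 in SUDHL16, except for the SUDHL16 parental library CE-26, which had 4131927. In CE-26, 55.4% of the counts were on protein-coding genes, and in the other libraries of the line 84.3% to 90.2%. Mitochondrial genes took 2.62% in CE-26 and 0.752% to 1.14% in the others. Ribosomal RNA genes and their pseudogenes took 0.141% and 0.0201% to 0.0481%. The SUDHL16 changes are therefore given with and without CE-26. Kit and instrument differed between the lines and cannot be told apart from them, so each line was fitted alone. The 5 B-cell markers followed (MS4A1, CD79A, CD79B, PAX5 and CD22) passed the filter on low counts in both lines, with a summed level of 3828 to 4020 CPM (scaled counts, explained below) in SUDHL6 and 2254 to 3761 CPM in SUDHL16. Markers of T cells, myeloid cells and stroma summed to at most 2.73 CPM per list in SUDHL6. In SUDHL16 the T-cell list summed to 16.5 CPM in CE-26, from CD3G, CD8A, CD3E and CD2, to 1.49 and 2.86 CPM in the other parental libraries and to 11.7 to 13.7 CPM in the resistant libraries. The resistant level was mainly CD3E, which rose with a log2 fold change of 2.59 (edgeR adjusted p = 0.045), or 3.34 without CE-26 (0.0013), while CD3D and CD2 were at 0 in the resistant libraries. The stromal and epithelial list reached 21.7 CPM in CE-26 against at most 0.386 CPM in the others. The myeloid list reached 10.7 CPM in CE-26 against at most 1.24 CPM in the others. The lowest summed level of the B-cell markers in SUDHL16, 2254 CPM, was also that of CE-26, against 3349 and 3385 CPM in the other parental libraries. The part of these levels in the results was not tested.

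The E-box is shown first because it is shared by members of several roles. RefSeq windows from 250 bases before to 50 bases after the start site were matched for 29 of the 35 genes, and those of NOP58, POLR1E, BOP1, RRP12, NOLC1 and RRS1 were not matched. Of the 29, 15 (51.7%) held CACGTG, which reads the same on both strands, against 1727 of 15843 protein-coding genes (10.9%). The E-box was found in 8 of the 9 small subunit genes with a matched window and in 0 of the 5 such genes of RNA polymerase I. In the windows below, 1 for each role with a match and 1 more for the small subunit, 30 bases of GRCh38.p14 are written 5′ to 3′ on the strand of the gene and the capitals mark the E-box. FBL (fibrillarin) belongs to the box C/D snoRNP, GAR1 to the box H/ACA snoRNP, NOL6 and RRP9 to the small subunit processome, PES1 to large subunit assembly, and GNL3 (nucleostemin) is a nucleolar GTPase.
FBL, chr19:39846356-39846385, minus strand: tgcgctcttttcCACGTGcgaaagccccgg
GAR1, chr4:109815781-109815810, plus strand: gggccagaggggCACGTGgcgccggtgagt
NOL6, chr9:33473894-33473923, minus strand: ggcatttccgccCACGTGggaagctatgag
RRP9, chr3:51941892-51941921, minus strand: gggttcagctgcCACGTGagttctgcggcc
PES1, chr22:30591880-30591909, minus strand: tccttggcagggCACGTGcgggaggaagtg
GNL3, chr3:52686026-52686055, plus strand: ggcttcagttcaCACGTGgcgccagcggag
The match is a description of these letters and was not tested as a binding site. Of the 130 matched genes on 6 further lists of the pathway, 30 (23.1%) held it. Neither DKC1 nor UBTF, described below, held it in the window. Other letters were also more frequent in the windows of the members than in those of protein-coding genes. On either strand, CACGCG was found in 34.5% against 18.1% and GGAAGT in 51.7% against 29.7%.

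In SUDHL6, most ribosome biogenesis genes were slightly lower in resistant than in parental cells, and DKC1 was the single gene that passed the 1.5-fold limit. Summed over the 35 genes, the level was 6771, 6820 and 6815 CPM in the parental libraries and 6271, 6333 and 6312 CPM in the resistant libraries. The groups did not overlap, with means of 6802 ± 27.5 and 6305 ± 31.5 CPM (SD, n = 3 each). CPM are counts divided by the library total, on the TMM scale of edgeR, which corrects for differences in library composition. The libraries also differed in the share of counts on mitochondrial genes, at 5.604% to 5.615% in parental and 6.34% to 6.63% in resistant cells, and in that on ribosomal RNA genes, at 0.00121% to 0.00129% and 0.00187% to 0.00197%, and the part of these shares in the result was not tested. In these bulk samples, fewer cells with a transcript and less of it per cell cannot be told apart.

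Gene by gene, 32 of the 35 had a lower mean in SUDHL6 resistant cells, where 50.0% of all 16662 genes tested did. The median log2 fold change of the 35 was −0.11, against −0.00 for all genes tested. At an adjusted p under 0.05 (quasi-likelihood test of edgeR, Benjamini-Hochberg adjustment over all genes tested) and any fold, 20 fell and 0 rose. That is 57.1% of the members, against 19.7% of all genes and 23.5% of protein-coding genes that fell, and 17.7% of all genes rose. Every resistant library lay below every parental library for 22 of the 35, against 24.8% of all genes. These shares are not matched for level. The group means of the members were 22.5 CPM (GAR1) to 1633 CPM (NCL), and a small fold passes more easily at higher counts. With the added limit of 1.5-fold, 1 fell and 0 rose, against 4.65% and 4.31% of all genes.

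**Figure D1:**
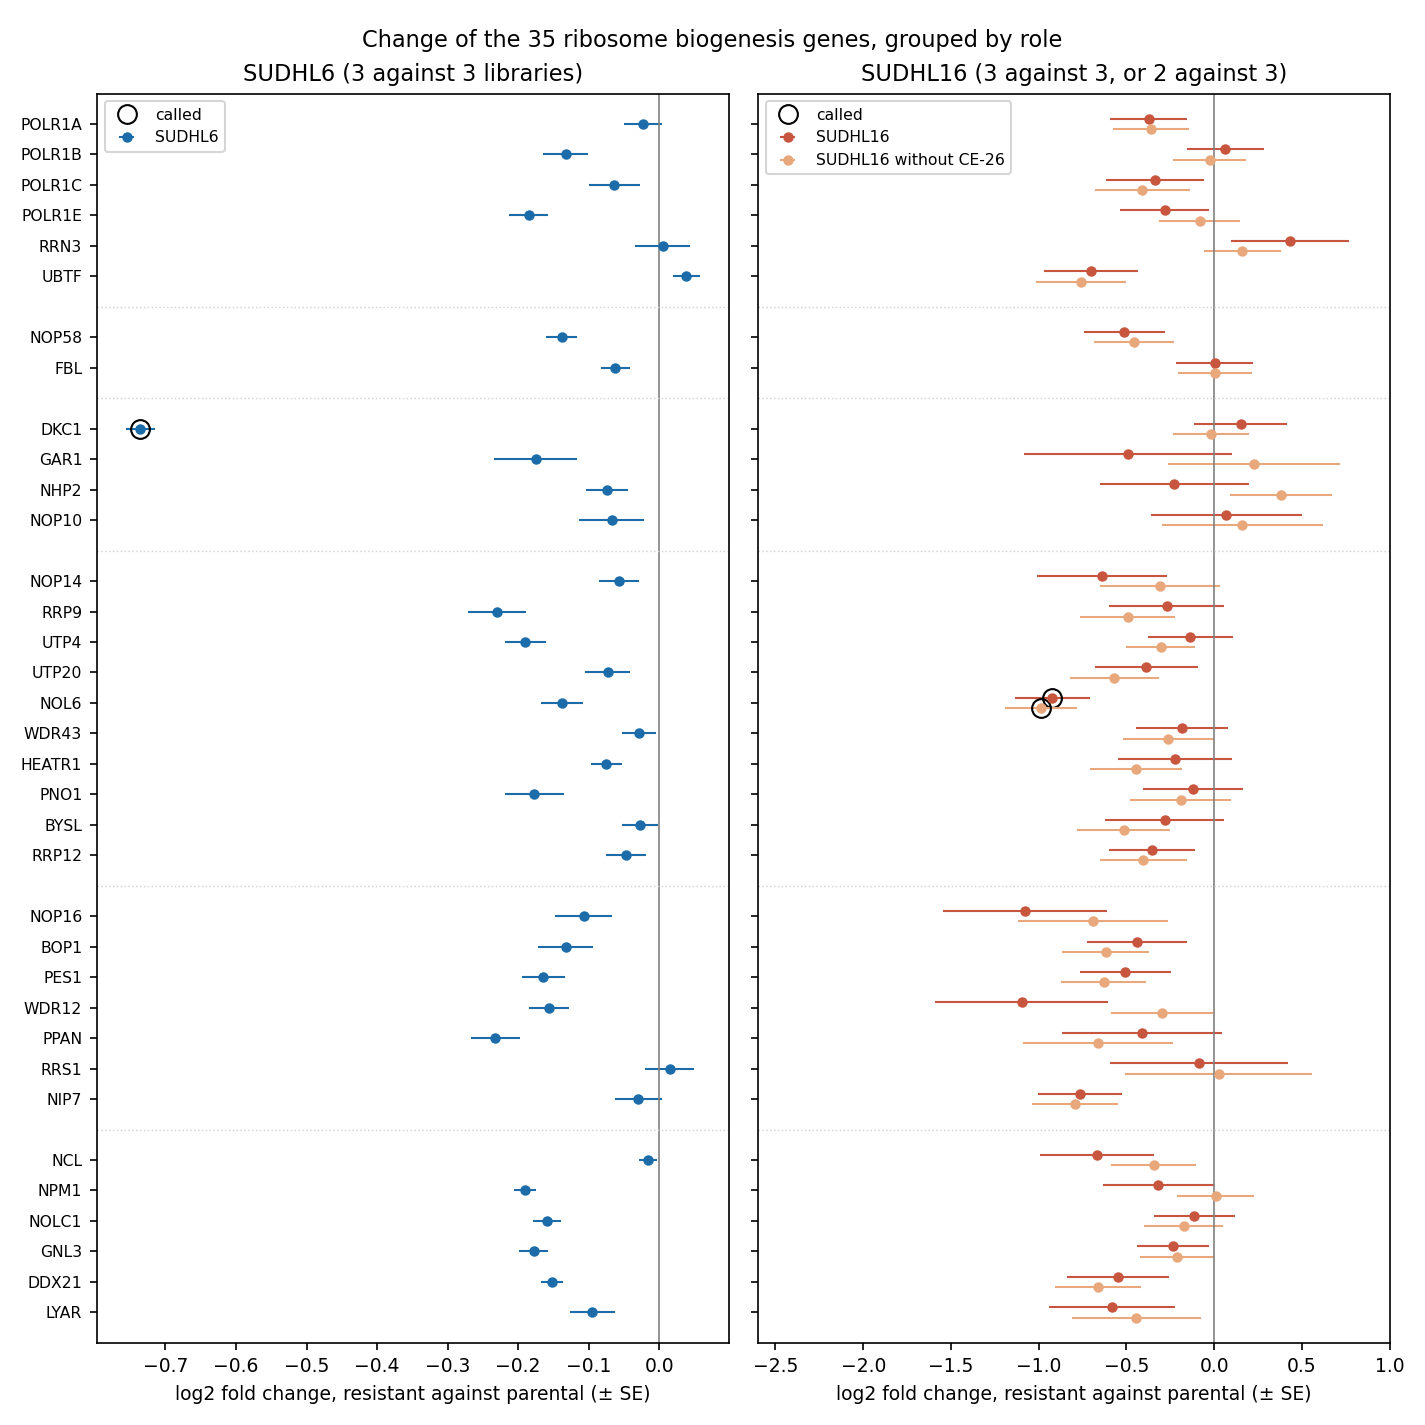
The log2 fold change of resistant against parental cells is drawn for each of the 35 genes, grouped by role, with the standard error as a bar and a ring around genes called at an adjusted p under 0.05 and 1.5-fold. In SUDHL6 (left) 32 points lie left of 0 and DKC1 stands apart at −0.74, while in SUDHL16 (right, all libraries and without CE-26) the errors are wider and only NOL6 is ringed.

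**Figure D2:**
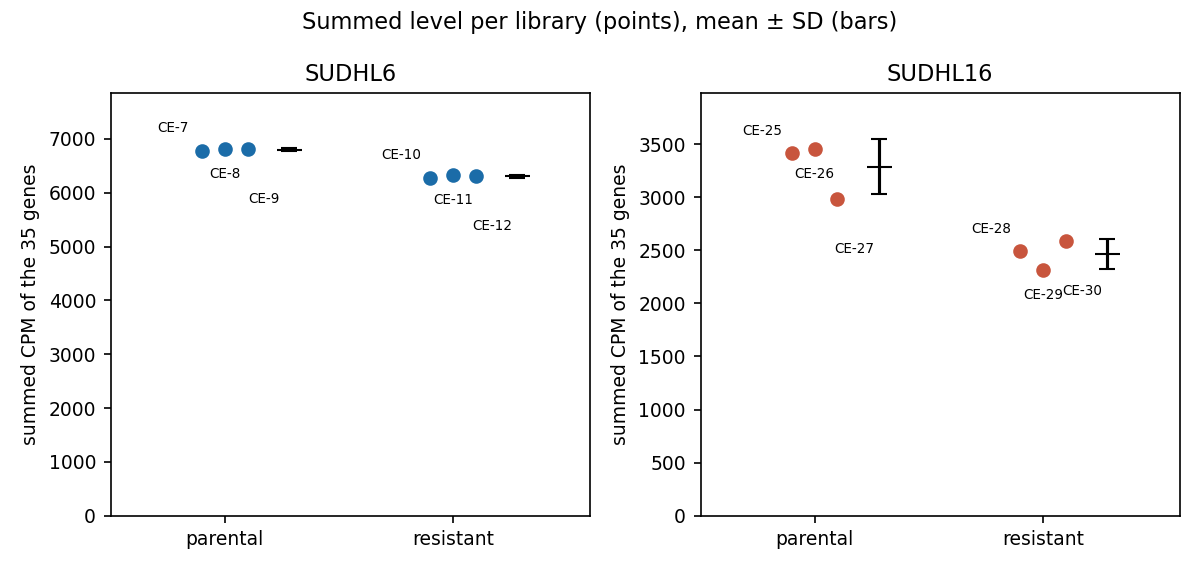
The summed CPM of the 35 genes is plotted for each library (points) with the mean and SD of each group (bars), in SUDHL6 on the left and SUDHL16 on the right. The resistant libraries lie below the parental libraries in both lines, with 6305 ± 31.5 against 6802 ± 27.5 CPM in SUDHL6 and 2466 ± 139 against 3287 ± 261 CPM in SUDHL16.

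Among the genes of RNA polymerase I, 2 of 6 fell in SUDHL6 at an adjusted p under 0.05 and any fold (33.3%). By that limit, used for each role below, 19.7% of all genes and 23.5% of protein-coding genes fell. POLR1E, a subunit of the enzyme, was at 71.8, 71.9 and 73.7 CPM in the parental and 63.2, 63.4 and 64.7 CPM in the resistant libraries, a log2 fold change of −0.19 (edgeR adjusted p = 1.8e-04). POLR1B, its second largest subunit, had a log2 fold change of −0.13 (edgeR adjusted p = 0.0059). The largest subunit POLR1A (−0.02), POLR1C, which RNA polymerase III also contains (−0.06), the initiation factor RRN3 (0.00) and UBTF, which binds and opens the ribosomal DNA (0.04), did not pass the test. RRN3 has pseudogenes named after it with which it could have shared reads.

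Both box C/D proteins fell in SUDHL6, where 19.7% of all genes did. This snoRNP adds methyl groups to the ribose of the precursor, with FBL as the methyltransferase and NOP58 as a core protein. NOP58 went from 196 ± 2.65 to 178 ± 2.35 CPM (SD, n = 3 each), a log2 fold change of −0.14, and FBL from 266 ± 4.72 to 255 ± 1.99 CPM, one of −0.06. In neither gene did the libraries of the 2 groups overlap, and the edgeR adjusted p was 3.0e-04 and 0.032.

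DKC1 encodes dyskerin, the pseudouridine synthase of the box H/ACA snoRNP, which is also part of telomerase. The gene lies on the plus strand of the X chromosome of GRCh38, from 154762742 to 154777689. In SUDHL6 it was at 268.3, 262.1 and 262.3 CPM in the parental libraries and at 158.3, 159.8 and 157.9 CPM in the resistant libraries, which did not overlap. On the log2 scale the fold change was −0.74 with a standard error of 0.02 (edgeR adjusted p = 8.7e-11).

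Its partners in the same particle moved less. GAR1 fell from 25.4 ± 0.767 to 22.5 ± 1.28 CPM (log2 fold change −0.18, edgeR adjusted p = 0.034). NHP2 was at 73.2 ± 0.661 and 69.5 ± 2.17 CPM, a log2 fold change of −0.07 (edgeR adjusted p = 0.073), and NOP10 at 44.4 ± 1.14 and 42.4 ± 2.55 CPM, also −0.07 (edgeR adjusted p = 0.29). All 3 are structural proteins of the particle. NHP2 shares 28.1% of its exon length with RMND5B on the opposite strand, and the strand setting of the counting is not given in the sources used here.

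The genes around DKC1 were also lower in SUDHL6. Of 39 other protein-coding genes tested within 1 Mb, 33 had a lower mean after resistance was acquired, and their median of −0.70 on the log2 scale was close to the value of DKC1. At an edgeR adjusted p under 0.05 and 1.5-fold, 27 of them fell and 2 rose, against 4.65% and 4.31% of all genes. In SUDHL16, 11 of 36 such neighbours were lower, with a median of 0.24 with and without CE-26. The window was chosen after the value of DKC1 was seen, and whether the region accounts for it was not tested.

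**Figure D3:**
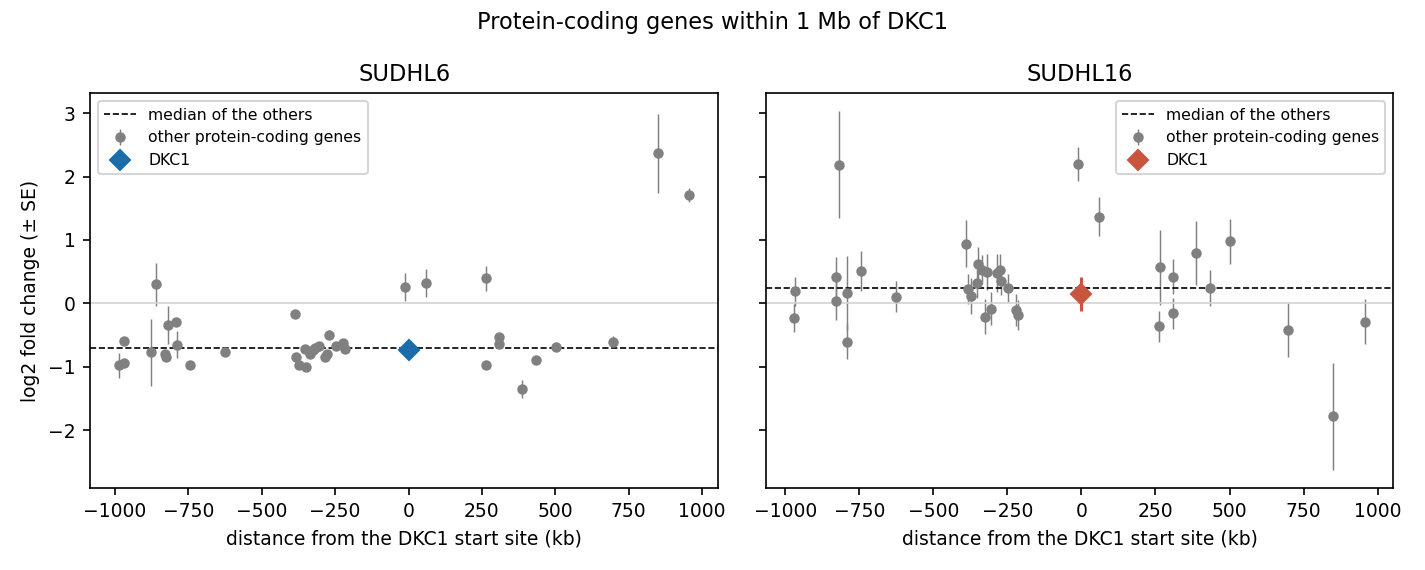
The log2 fold change (resistant against parental) of the protein-coding genes within 1 Mb of DKC1 is plotted against the distance of their start sites from that of DKC1, in kb, for SUDHL6 and SUDHL16. In SUDHL6 most neighbours lie near the DKC1 value of −0.74, with a median of −0.70, whereas in SUDHL16 their median is 0.24.

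All 10 small subunit genes had a lower mean in SUDHL6, and 5 of them fell (50%, against 19.7% of all genes). RRP9, a protein of the U3 snoRNP, was at 38.2, 38.4 and 38.3 CPM in parental and 33.3, 32.2 and 32.4 CPM in resistant libraries, a log2 fold change of −0.23 (edgeR adjusted p = 6.8e-04). UTP4 had a log2 fold change of −0.19, PNO1, needed late in 40S maturation, −0.18, NOL6 −0.14 and HEATR1, a large scaffold of the processome, −0.07, with edgeR adjusted p values from 2.4e-04 to 0.016. HEATR1 shares 23.1% of its exon length with LGALS8 on the opposite strand, which rose. NOP14, UTP20, WDR43, BYSL and RRP12 had log2 fold changes from −0.07 to −0.03 and did not pass.

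Of the 7 large subunit genes, 4 fell in SUDHL6 (57.1%, against 19.7% of all genes). PES1, BOP1 and WDR12 form the PeBoW complex, which acts in processing of the 60S precursor, and all 3 fell, by log2 fold changes of −0.16, −0.13 and −0.16 (edgeR adjusted p = 8.8e-04, 0.018 and 8.2e-04). The libraries of the groups did not overlap for PES1 and WDR12, whereas for BOP1 the lowest parental library, at 99.8 CPM, lay below the highest resistant library, at 99.9 CPM. PPAN had a log2 fold change of −0.23 (edgeR adjusted p = 1.8e-04), but 47.6% of its exon length is shared with the read-through gene PPAN-P2RY11 on the same strand, which had 165 to 310 counts per library and a log2 fold change of 0.59 (edgeR adjusted p = 3.5e-04), so the split of reads between them is uncertain. NOP16 (−0.11), RRS1 (0.02) and NIP7 (−0.03) did not pass.

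Among the nucleolar phosphoproteins, GTPases and helicases, 5 of 6 fell in SUDHL6 (83.3%, against 19.7% of all genes). NPM1 (nucleophosmin), an abundant nucleolar chaperone, was at 777.4, 785.1 and 771.1 CPM in parental and 675.7, 680.3 and 690.1 CPM in resistant libraries. The groups did not overlap and on the log2 scale the fold change was −0.19 with a standard error of 0.02 (edgeR adjusted p = 9.3e-07). GENCODE names 49 pseudogenes after NPM1, with which it could have shared reads. GNL3 fell by 0.18 on the log2 scale, NOLC1, a chaperone of snoRNPs, by 0.16, the RNA helicase DDX21 by 0.15 and LYAR by 0.09. NCL (nucleolin), the member with the highest level per kilobase of exon in SUDHL6 (183 ± 0.806 CPM per kb in parental cells, n = 3), had a log2 fold change of −0.02 and did not pass (edgeR adjusted p = 0.37).

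In SUDHL16 the ribosome biogenesis genes were also mostly lower in resistant cells, with larger mean changes and a much larger spread, and NOL6 was the single gene that passed. The summed level was 3415, 3459 and 2988 CPM in the parental libraries CE-25, CE-26 and CE-27, and 2490, 2316 and 2590 CPM in the resistant libraries CE-28, CE-29 and CE-30. The groups did not overlap. As a share of all counts, without scaling, the genes took 0.371%, 0.243% and 0.319% in the parental and 0.259%, 0.245% and 0.276% in the resistant libraries, so that CE-26 then lay below all of the resistant libraries. As a share of protein-coding counts alone, they took 0.413%, 0.439% and 0.362% against 0.308%, 0.272% and 0.314%, without overlap. Without CE-26 the summed level was 3395 ± 313 CPM (SD, n = 2) in parental and 2635 ± 169 CPM (n = 3) in resistant cells.

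A lower mean in SUDHL16 resistant cells was found for 30 of the 35 genes, against 50.9% of all 15708 genes tested, and for 28 of 35 without CE-26, against 47.1% of 16280. The median log2 fold change was −0.34 with all libraries (−0.02 for all genes) and −0.35 without CE-26 (0.05 for all genes). The counts that passed were small. At an adjusted p under 0.05 and 1.5-fold by edgeR, 1 fell and 0 rose in both fits, against 2.10% and 3.20% of all genes with all libraries and 3.32% and 6.73% without CE-26. An unadjusted edgeR p under 0.05 was reached by 4 genes, or 11.4%, against 19.1% of all genes, and without CE-26 by 6, or 17.1%, against 23.3%. Every resistant library lay below every parental library for 7 genes (20%, against 11.9% of all genes), and for 13 without CE-26 (37.1%, against 19.4%).

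**Figure D4:**
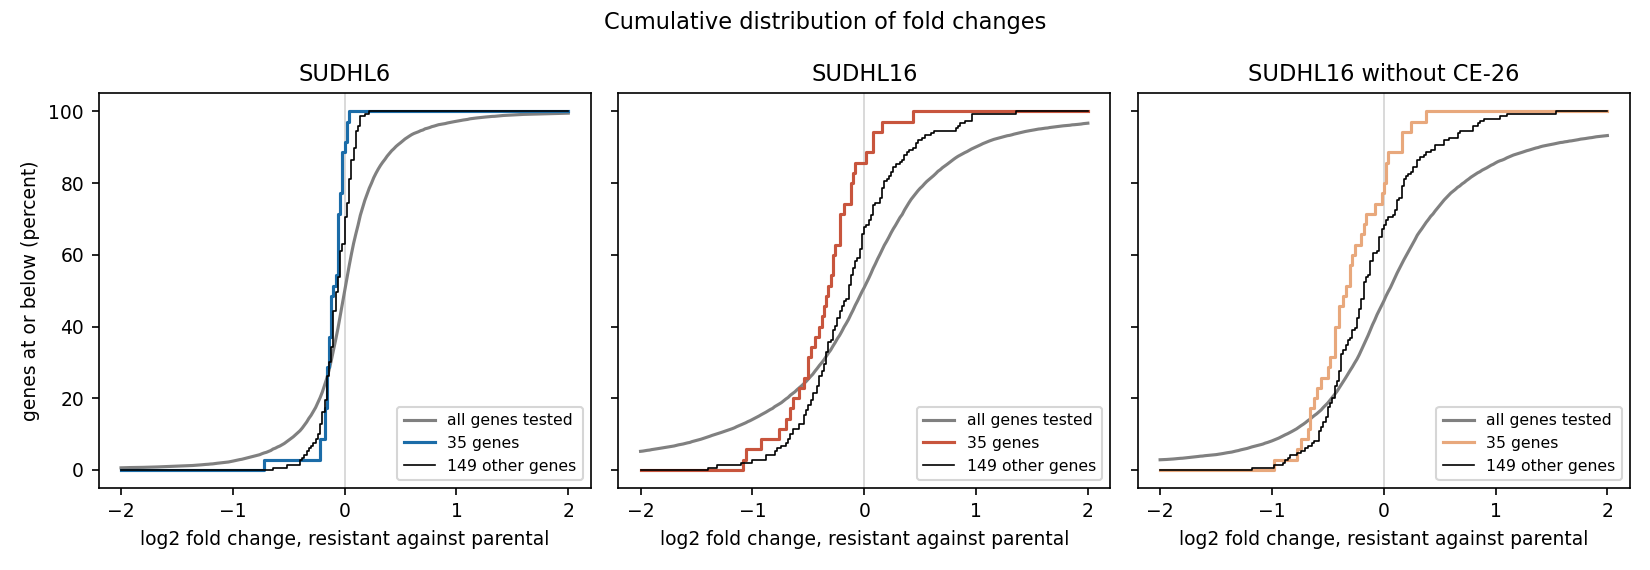
The cumulative share of genes is plotted against the log2 fold change (resistant against parental) for the 35 ribosome biogenesis genes, the 149 other genes of the pathway described below and all genes tested, in a panel for each comparison. The curve of the members lies to the left of that of all genes around 0, with medians of −0.11 against −0.00 in SUDHL6, −0.34 against −0.02 in SUDHL16 and −0.35 against 0.05 in SUDHL16 without CE-26.

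NOL6, also called nucleolar RNA-associated protein, is a component of the small subunit processome. In SUDHL16 it was at 81.1, 69.6 and 83.5 CPM in the parental and 43.4, 44.7 and 35.6 CPM in the resistant libraries, and the groups did not overlap. On the log2 scale the fold change was −0.92 with a standard error of 0.21 (edgeR adjusted p = 0.046), and −0.99 without CE-26 (edgeR adjusted p = 0.021). The call is close to its threshold. It was lost without any of CE-25, CE-27, CE-28, CE-29 or CE-30, with edgeR adjusted p values from 0.157 to 0.180 and log2 fold changes from −0.99 to −0.82. Its neighbours did not share the direction, since 13 of 20 protein-coding genes within 1 Mb were higher, with a median log2 fold change of 0.13 (also 13, and 0.04, without CE-26).

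The other 9 small subunit genes had lower means in SUDHL16 with and without CE-26, and none of them passed (edgeR adjusted p from 0.40 to 0.87 with all libraries and 0 genes other than NOL6 at an unadjusted p under 0.05). With all libraries the log2 fold changes of these 9 ranged from −0.64 (NOP14) to −0.12 (PNO1), and without CE-26 from −0.57 (UTP20) to −0.19 (PNO1). The value of NOP14 rested on CE-26, where it was at 146 CPM against 86.9 and 80.2 CPM in the other parental libraries, and it was −0.31 without that library. NOP14 also shares 20.7% of its exon length with NOP14-AS1 on the opposite strand. The median over the 10 genes was −0.28, and −0.42 without CE-26. In SUDHL6 it was −0.07.

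The large subunit genes had the lowest median of the 6 roles in SUDHL16, at −0.51, and −0.63 without CE-26, although none was called. NIP7, which acts in 60S maturation and precursor processing, was at 44.3, 39.9 and 43.6 CPM in parental and 28.7, 27.2 and 19.4 CPM in resistant libraries. These did not overlap, with a value of −0.76 on the log2 scale (edgeR adjusted p = 0.12), or −0.80 without CE-26 (0.082). NIP7 shares 18.4% of its exon length with COG8 on the opposite strand. PES1 and BOP1 had log2 fold changes of −0.51 and −0.44 (−0.63 and −0.62 without CE-26), without passing.

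Several values in this group moved with CE-26. WDR12 was at 288 CPM in CE-26 and at 86.6 and 93.6 CPM in the other parental libraries, and its log2 fold change went from −1.10 to −0.30 without CE-26. NOP16 was at 25.5 CPM in CE-26 and at 12.7 and 13.5 CPM in the others, and its log2 fold change went from −1.08 to −0.69. Neither gene was called in either fit. PPAN went from −0.41 to −0.66 without CE-26, and RRS1 turned from −0.09 to 0.03, with standard errors of 0.46 and 0.51 with all libraries.

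Among the genes of RNA polymerase I in SUDHL16, UBTF had the lowest value. It was at 192.9, 173.6 and 213.6 CPM in parental and 153.1, 110.9 and 93.1 CPM in resistant libraries, which did not overlap, and the log2 fold change of −0.70 had a standard error of 0.27 (edgeR adjusted p = 0.20). Without CE-26 it was −0.76 (edgeR adjusted p = 0.11). Of 33 protein-coding genes tested within 1 Mb of UBTF, 29 were lower, against 50.9% of all genes, with a median of −0.46. Without CE-26, 26 were lower, against 47.1% of all genes, with a median of −0.45. The part of the region in the value of UBTF was not tested. POLR1A (−0.37, and −0.36 without CE-26), POLR1C (−0.34 and −0.41), POLR1E (−0.28 and −0.08), POLR1B (0.06 and −0.03) and RRN3 (0.43 and 0.16) did not pass in either fit, and POLR1B changed sign between them.

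Of the snoRNP proteins in SUDHL16, NOP58 had a log2 fold change of −0.51 (edgeR adjusted p = 0.27), or −0.46 without CE-26 (0.28), with no overlap between the groups, and FBL one of 0.00 in both fits. DKC1 was at 157.4, 89.9 and 123.3 CPM in parental and 144.6, 124.3 and 143.1 CPM in resistant libraries, with overlap and a log2 fold change of 0.15 (edgeR adjusted p = 0.83), or −0.02 without CE-26. GAR1 and NHP2 turned from −0.49 and −0.23 to 0.23 and 0.38 without CE-26, and NOP10 was at 0.07 and 0.16. The median of the 4 box H/ACA genes accordingly changed sign, from −0.08 to 0.19, and with all libraries it was 0.12 when scaled by library totals.

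The nucleolar phosphoproteins, GTPases and helicases had a median of −0.43 in SUDHL16 and of −0.28 without CE-26. NCL was at 569 CPM in CE-26 against 343 and 319 CPM in the other parental libraries, and at 300, 197 and 278 CPM in the resistant libraries. Its log2 fold change went from −0.67 to −0.35 without CE-26, and the groups did not overlap in either case. DDX21 was at 537.9, 343.0 and 366.0 CPM in parental and 239.2, 288.5 and 324.2 CPM in resistant libraries, also without overlap, with a log2 fold change of −0.55 (edgeR adjusted p = 0.36), or −0.66 without CE-26 (0.14). NPM1 went from −0.32 to 0.01 without CE-26. LYAR (−0.58, and −0.44 without CE-26), GNL3 (−0.24 and −0.21) and NOLC1 (−0.11 and −0.17) did not pass in either fit.

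**Figure D5:**
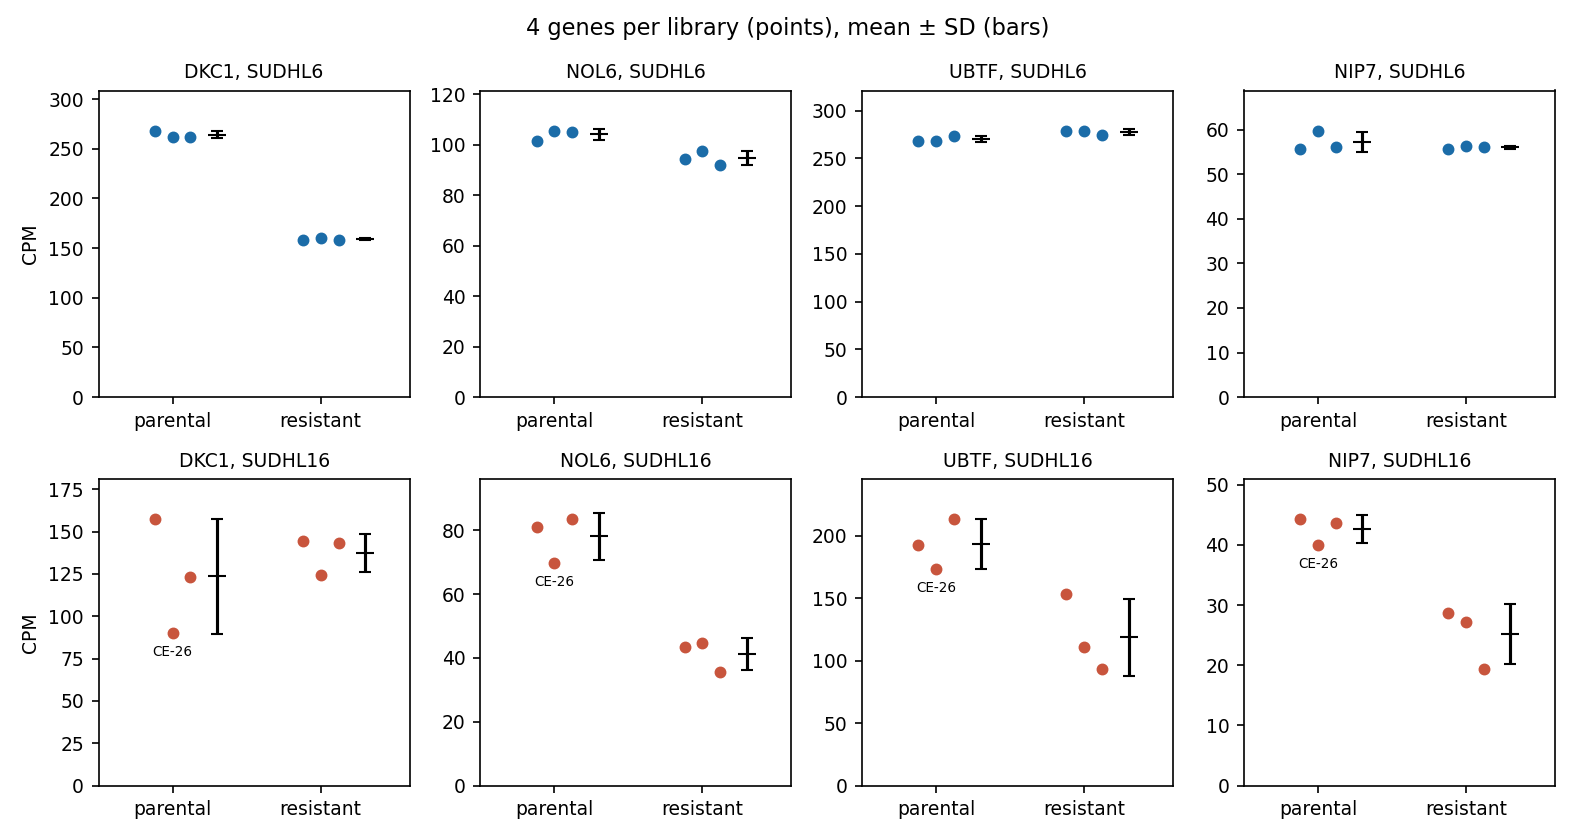
The CPM of DKC1, NOL6, UBTF and NIP7 is plotted for each library (points), with the mean and SD of each group (bars), in parental and resistant cells of both lines. DKC1 separates the groups in SUDHL6 only, at about 158 to 160 CPM against 262 to 268 CPM, and NOL6, UBTF and NIP7 separate them in SUDHL16 with every resistant library below every parental library.

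An interaction term in a single edgeR fit of all 12 libraries tested whether resistance went with a different change in each line. That fit pools the spread of both lines for each gene, although SUDHL6 libraries varied far less than those of SUDHL16. Its p-values may therefore be too small. With all libraries, 0 of the 35 genes passed at an adjusted p under 0.05, against 7.16% of all 19621 genes tested. An unadjusted edgeR p under 0.05 was reached by 4 of them (11.4%), against 21.8% of all genes. Without CE-26, 4 passed (11.4%), against 14.0% of 20959 genes, and 9 had an unadjusted p under 0.05. The 4 were NOL6 (change in SUDHL16 minus that in SUDHL6 −0.89, edgeR adjusted p = 0.0017), UBTF (−0.85, 0.021) and NIP7 (−0.81, 0.015), with the lower change in SUDHL16, and DKC1 (0.67, 0.018), with the lower change in SUDHL6. In SUDHL6, NOL6 was at 101.4, 105.6 and 105.2 CPM in parental and 94.4, 97.4 and 91.9 CPM in resistant libraries, which did not overlap. UBTF was at 268.6, 268.4 and 273.5 CPM against 279.0, 279.2 and 274.1 CPM there, with every resistant library above the parental ones and no call. NIP7 was at 55.7, 59.8 and 56.0 CPM against 55.7, 56.3 and 56.0 CPM, with overlap. The 4 are the genes with an unadjusted p under 0.05 with all libraries too, where their adjusted p was 0.0503 to 0.13. DESeq2 called 4 of the 35 (11.4%) with all libraries, against 16.0% of the 18367 genes to which it gave an adjusted p.

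The same was asked of 149 other genes of the pathway, in 6 lists written from general knowledge. In SUDHL6, 105 were lower (70.5%, against 50.0% of all genes), and the median was −0.08 on the log2 scale. At an adjusted p under 0.05 by edgeR and any fold, 59 fell (39.6%) and 11 rose, against 19.7% and 17.7% of all genes. DIS3, the catalytic subunit of the RNA exosome, was the single gene past 1.5-fold (0.671%, against 4.65% of all genes lowered). It went from 302 ± 6.38 to 193 ± 5.15 CPM (log2 fold change −0.65, edgeR adjusted p = 1.0e-09). All 5 protein-coding genes tested within 1 Mb of DIS3 were lower as well, with a median of −0.63. In SUDHL16, 101 were lower (67.8%, against 50.9% of all genes), with a median of −0.16. By edgeR 0 were called in either direction, where 2.10% of all genes were lowered and 3.20% raised. An unadjusted edgeR p under 0.05 was reached by 24 (16.1%, against 19.1% of all genes).

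Without CE-26, 102 of the 149 were lower (68.5%, against 47.1% of all genes), with a median of −0.19. By edgeR 3 fell (2.01%) and 3 rose, against 3.32% and 6.73% of all genes. TAF1B, a subunit of the promoter selectivity factor of RNA polymerase I, fell by 0.90 on the log2 scale, and the large subunit factors NLE1 and MDN1, which act together on the 60S precursor, fell from 59.9 ± 3.76 to 29.96 ± 3.68 CPM and by 0.88 on the log2 scale (edgeR adjusted p = 0.038, 0.023 and 0.028; MDN1 was named after its value was seen). TSR1, a factor of 40S maturation, rose by 0.86, EFL1, a GTPase of late 60S maturation, by 1.08, and the snoRNA host RNA ZFAS1 by 1.03 (edgeR adjusted p = 0.0496, 0.034 and 0.047). The 12 snoRNA host RNAs had a median of 0.29 in SUDHL16, and of 0.30 without CE-26, when 11 of 12 were higher. The medians of the 5 protein lists were −0.26 to −0.03 with all libraries, and 2 of them, the other RNA polymerase I factors and the exosome, were above 0 (0.13 and 0.04) when scaled by library totals. In SUDHL6 the median of the host RNAs was −0.01, and 0.01 with upper-quartile scaling.

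MYC was at 262 ± 1.49 CPM in SUDHL6 parental and 180 ± 4.82 CPM in SUDHL6 resistant cells (SD, n = 3 each), a log2 fold change of −0.54 (edgeR adjusted p = 3.2e-09) that is under 1.5-fold. In SUDHL16 its log2 fold change was −0.32 (edgeR adjusted p = 0.56), and −0.35 without CE-26 (0.45). Split by the E-box, the 15 genes with CACGTG in the window had a median log2 fold change of −0.14 in SUDHL6 and all 15 were lower, against a median of −0.07 and 12 of 14 lower without it. In SUDHL16 the medians were −0.28 with and −0.36 without the E-box, and −0.31 and −0.35 when CE-26 was left out. Roles were uneven between the 2 sets, since 8 of the 15 are small subunit genes and 0 are genes of RNA polymerase I. The values describe the 29 genes with a matched window, and the parts of role and of MYC in the changes were not tested.

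Proliferation genes did not move in 1 direction in SUDHL6. Of 18 followed for comparison, 9 rose and 9 fell at an edgeR adjusted p under 0.05 and any fold. By that limit 17.7% of all genes rose and 19.7% fell, and the median of the 18 was 0.00. PCNA and MCM2 to MCM7 all fell (log2 fold changes from −0.60 to −0.16), as did MKI67 and AURKB. TOP2A, CCNB1, CCNA2, CDK1, AURKA, PLK1, BUB1, RRM2 and TYMS rose (0.09 to 0.54). They were listed after their values were seen. MCM5, a subunit of the replicative helicase, was the single gene past 1.5-fold (−0.60, edgeR adjusted p = 2.7e-10). In SUDHL16, 12 of the 18 were lower, with a median of −0.07 (13 and −0.31 without CE-26), and the mitotic kinase AURKB rose, with a log2 fold change of 1.22 (edgeR adjusted p = 0.025). Without CE-26, AURKB (1.08, edgeR adjusted p = 0.016) and TYMS (0.97, 0.036), which makes thymidylate, rose, and the topoisomerase TOP2A fell (−0.97, 0.0485), of which TYMS and TOP2A were named after their values were seen.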

How the data were processed

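The authors trimmed the reads with Trim Galore, aligned them to GRCh38 with HISAT2 and ran StringTie, and deposited raw counts per Ensembl gene for each library. The counting tool, its annotation and its strand setting are not given in the sources used here. Of 60675 identifiers, 56558 (93.21%) were in GENCODE 44, which gave symbols and positions. The members and all gene lists were chosen with earlier results of these data known.

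Each line was fitted alone with edgeR 4.0.16 in R 4.3.3 (filterByExpr, TMM, two-sided quasi-likelihood test), with a gene called at a Benjamini-Hochberg adjusted p under 0.05 and at least 1.5-fold, the limits of the study's methods. The biological coefficient of variation from edgeR was 0.0516 for SUDHL6, 0.468 for SUDHL16 and 0.339 without CE-26. No libraries of a group were identical. Values per library were given for members called in any fit or in the interaction, and for some other members as examples chosen after their values were seen. From the other lists the called genes were named. A marker gene fixed for the check of cell type is not reported here.

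Alternatives were DESeq2 1.42.0, upper-quartile scaling, library totals, no filter, glmTreat, protein-coding genes only, a single fit of all libraries, and each library left out. Leaving out CE-26 from the single fit, the count without a fold limit, the counts of lower means and the 1 Mb windows were chosen after seeing the data. The fits were tested on simulated counts. For the interaction, these gave both lines the same spread for each gene, so they cannot show how it behaves with the unequal spread found here. Promoter windows are from RefSeq (GRCh38.p14).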

Additional observations from a re-analysis of the deposited data

Results flagged for a closer look

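The change differed between the lines for 4 members by the interaction test in the edgeR fit without CE-26, which is 11.4% of the 35, against 14.0% of all 20959 genes tested. The change in SUDHL16 minus that in SUDHL6 was −0.89 for NOL6, −0.85 for UBTF and −0.81 for NIP7, and 0.67 for DKC1. In SUDHL16 without CE-26, every resistant library lay below every parental library for NOL6, UBTF and NIP7, and in SUDHL6 for DKC1 and NOL6, whereas for UBTF every resistant SUDHL6 library lay above every parental one. With all libraries none of the 4 passed (edgeR adjusted p = 0.0503 for NOL6, 0.13 for UBTF, 0.084 for NIP7 and 0.097 for DKC1). Without CE-26 the pooled fit gave the difference a smaller standard error than the SUDHL16 change had alone. It was 0.14 against 0.21 for NOL6, 0.21 against 0.26 for UBTF, 0.19 against 0.25 for NIP7 and 0.16 against 0.22 for DKC1. The p-values of the 4 may therefore be too small. DKC1 in SUDHL6 and UBTF in SUDHL16 without CE-26 lie among neighbours with medians of −0.70 and −0.45, and the neighbours of NOL6 and NIP7 in SUDHL16 without CE-26 had medians of 0.04 and −0.04 (0.13 and −0.21 with all libraries). The cause of the difference between the lines was not tested, and kit and instrument cannot be told apart from the line.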

How the results depend on the processing

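No paired analysis was possible because the labels give no replicate numbers. Alternatives gave 417 values (counts, medians over all members or all other genes, and DKC1, NOL6, UBTF and NIP7). Of these, 312 stayed, 77 moved beyond the spread or by over 1.5 times, 16 newly passed and 12 no longer passed. A change of direction was found in 0. Counts and medians within a line were labelled only as staying or moving, so such a change could not be found in them. Medians of smaller lists and single genes did change sign, as given above. The members' median stayed below 0 in every comparison and setting run, and in SUDHL6 it was −0.11 in the reported fit, −0.0904 under upper-quartile scaling, −0.0982 with library totals and −0.1379 to −0.094 with 1 library left out. DKC1 stayed called in SUDHL6 except in the single fit of all 12 libraries, where the spread of SUDHL16 enters and 0 members were called or fell at any fold. Without the fold limit, the 20 members that fell in SUDHL6 became 1 under glmTreat, whose test includes the fold limit, and 1 in the single fit without CE-26.

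In SUDHL16, NOL6 was not called with library totals, no filter or glmTreat (0 members each). The single fit, where the smaller spread of SUDHL6 enters, called 3, and 0 to 1 were called with 1 library left out. Without CE-26, the 1 call became 3 with DESeq2, 0 with glmTreat, 7 in the single fit, and 0 to 2 with 1 more library left out (0 without CE-25 or without CE-27). The interaction called 4 members with DESeq2, 3 with upper-quartile scaling, 4 with protein-coding genes only, 4 without CE-26, and 0 to 4 with 1 library left out (1 without CE-25 and 2 without CE-30).

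For the 149 other genes, the SUDHL6 count that fell was 0 under glmTreat and in the single fit, and their median was −0.0732 with DESeq2, −0.0603 with upper-quartile scaling, −0.0679 with library totals, −0.0722 with no filter, −0.0732 in the single fit without CE-26, and −0.0806 to −0.0661 with 1 library left out. In SUDHL16, those that rose and fell were 4 and 4 with DESeq2, 2 and 1 with protein-coding genes only, 7 and 11 in the single fit, and 0 to 3 each with 1 library left out, and 1 rose with no filter. The median was −0.0362 with library totals and −0.0598 with no filter. Without CE-26, the 3 and 3 became 6 and 9 with DESeq2, 7 and 5 with no filter, 0 and 0 with glmTreat, 8 and 17 in the single fit, and 0 to 3 and 0 to 6 with 1 more library left out, while 1 rose with upper-quartile scaling or library totals. Their median was then −0.2856 to −0.0731 with 1 more library left out.

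Other scalings moved the median of all genes in SUDHL16 to −0.11 (upper quartile) and 0.11 (library totals), and no filter moved it to −1.18. The causes of these moves were not tested. Depth and the spread between libraries limit SUDHL16 more than SUDHL6, and intervals of counting error would not cover that spread.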
